A study of Bos taurus with 2 samples.

Results

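Of 25086 autosomal windows of 100 kb, 1416 had a low CpG methylation level in the sperm of both Bull1 and Bull2, Holstein bulls that are monozygotic twins. These low-methylation windows made up 5.64% of the windows and held 1361531 CpG sites, 5.90% of the sites in all windows. A window belonged to them when under 65% of the reads at its CpG sites were methylated in Bull1 and also in Bull2. Sites counted when they had 5 to 400 reads in both libraries, and a window needed 200 or more such sites. The level of a window was its methylated reads over all its reads. The windows were thus chosen by the levels measured in these same libraries, and their being low is a description and not a result. A further 380 windows were under 65% in Bull2 only and 0 in Bull1 only, and 43 autosomal windows had too few sites to be judged.

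Both bulls were artificial insemination sires of the same age, and the study compared their sperm because their semen quality differed. Each bull gave 1 library of whole-genome bisulfite sequencing (WGBS), which reads a cytosine as T after bisulfite treatment unless it was methylated. Reads summed over the listed CpG sites came to 544424736 in Bull1 and 499287038 in Bull2, with medians of 17 and 15 reads per site. A read that spans several sites counts at each, so these sums are not numbers of sequenced reads. With 1 library per bull there was no spread between replicates, so differences below are between libraries, and the exact 95% intervals in brackets (Clopper-Pearson) hold counting error alone. All coordinates are those of the build UMD3.1 as the files list them. Genes and known imprinted regions in the windows were not analysed here, so the labelled cell type was not checked against sperm markers.

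Mature sperm is among the most highly methylated of mammalian cell types, because methylation is erased in primordial germ cells and laid down again before birth in the male germ line. Short gaps in this methylation lie at CpG-dense promoters. Satellite DNA, tandem repeats that gather near centromeres, is known to be less methylated in sperm than in somatic cells of cattle and other mammals. Reads from repeat copies that are missing from an assembly pile up on the copies it holds, so coverage is a useful second measure beside the level.

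3 loci for which the study designed bisulfite primers lay in low-methylation windows. They are shown because they are the places inside these windows where a targeted assay was designed to read the same DNA. The primers match bisulfite-converted DNA, so unmethylated C appears as t in forward and as a in reverse primers. The first locus, chr23:27332424-27332494, was read by pyrosequencing.
chr23 forward: tgttagagtaggtggtgaagatttg
chr23 reverse: atccccaaaatacaaaaactactac
chr23 sequencing primer: gggatggtggagttg
The other loci, chr4:69311385-69311729 and chr4:69398315-69398594, lay in 1 window and had primers listed for bisulfite sequencing.
chr4 first forward: taagtttgtgggagggggatag
chr4 first reverse: accacctcaaaaaaaacaacaaatc
chr4 second forward: ggttagaggaggttgtttttgtgag
chr4 second reverse: aacctctaaactcctctctctccac

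At the chr23 locus the WGBS libraries held 9 methylated of 104 reads in Bull1, 8.65% (4.03 to 15.8%). In Bull2 they held 47 of 145 reads, 32.4% (24.9 to 40.7%), over the same 6 CpG sites. Bull1 was the lower library at this locus, whereas the window around it, chr23:27300001-27400000, was higher in Bull1, at 55.9% against 54.0%. A read that spans several of the 6 sites counts at each, so the intervals at the locus are too narrow to set the libraries apart. The chr4 loci had low levels in both libraries. The first had 11 of 175 reads methylated in Bull1, 6.29% (3.18 to 10.97%), and 0 of 132 in Bull2, which allows up to 2.76%. Bull1 was the higher library here, but a read that spans several of the 27 CpG sites counts at each. These intervals are therefore too narrow to set the libraries apart. The second had 0 of 202 reads in Bull1, which allows up to 1.81%, and 2 of 236 in Bull2, 0.847%. Their window chr4:69300001-69400000 had 3785 listed CpG sites and levels of 31.4% and 27.5%. The window to its right stood at 84.9% and 80.4%, and the one to its left, at 64.8% and 60.1%, was itself a member.

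Over all low-methylation windows together, 39.95% of reads were methylated in Bull1 and 37.9% in Bull2, against 83.5% and 79.5% in the other windows. The median window stood at 54.1% in Bull1, with quartiles of 41.7 and 60.5%, and at 51.2% in Bull2, with quartiles of 39.9 and 57.3%. The levels of the windows in the plot of Bull2 against Bull1 formed 1 narrow band from under 10% up to the limit. Just inside the limit lay chr1:140000001-140100000 (64.4 and 64.9%), chr15:3500001-3600000 (64.9 and 61.9%) and chr23:28100001-28200000 (64.9 and 61.6%). Just outside lay chr1:129900001-130000000 (65.01 and 62.8%), chr15:82600001-82700000 (65.05 and 61.1%) and chr5:4800001-4900000 (65.1 and 62.8%). The limit thus cut through a continuous range of levels, and 393 members had a level between 60 and 65% in at least 1 library.

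**Figure D1:**
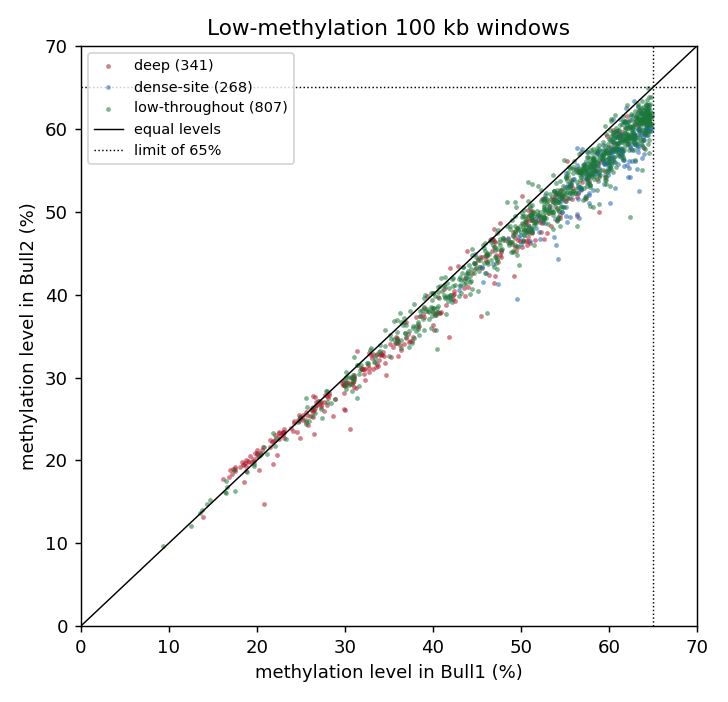
Methylation level of each of the 1416 low-methylation windows in Bull1 (x axis, %) and Bull2 (y axis, %), coloured by group, with the line of equal levels and the limit of 65%. Most windows lie below the line, higher in Bull1, while 154 windows lie above it.

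The windows were of 3 kinds, told apart by coverage and by the level at CpG-poor sites, those with 1 to 5 listed CpG sites in the 100 bp on either side, the site itself included. The limits between the kinds were set after the values had been seen and serve as description. Deep windows, 341 or 24.1%, had a mean coverage above 1.5 times that of the median window in both libraries. Dense-site windows, 268 or 18.9%, did not pass that limit in both libraries and had a level of at least 70% at CpG-poor sites in both. Low-throughout windows, 807 or 57.0%, did not pass it either and were under 70% at CpG-poor sites in at least 1 library. The names are short for these limits, and some low-throughout windows were mosaics, with up to 74.97% at CpG-poor sites in Bull1 and up to 62.2% of sites at or above 80% in both libraries. The kinds graded into each other. In 152 windows coverage was within 10% of its limit in either library, and 211 windows that were not deep lay within 5 points of the level limit. Some windows are in both counts.

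**Figure D2:**
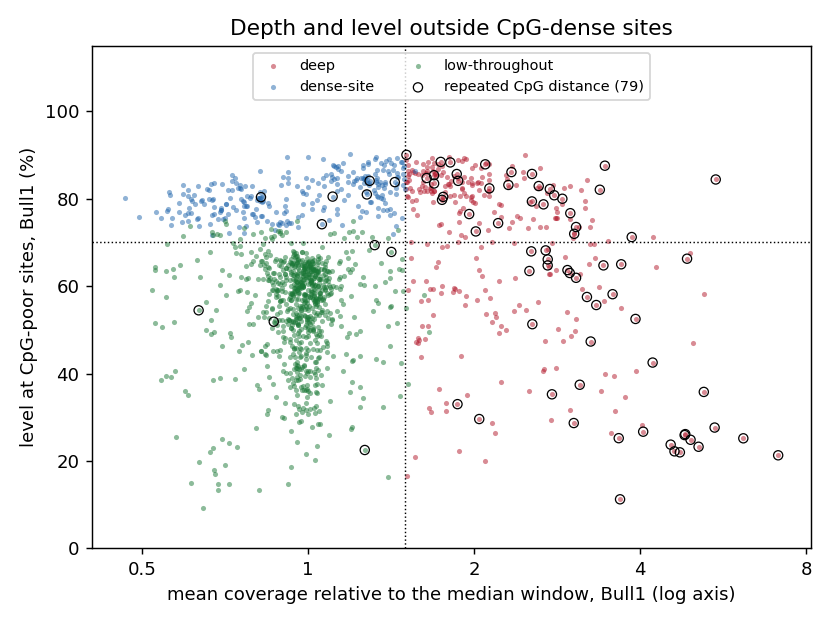
Mean coverage of each low-methylation window in Bull1 relative to the median of all windows (x axis, log scale) against its level at CpG-poor sites in Bull1 (y axis, %), coloured by group, with limits at 1.5 and 70% as dotted lines. Black rings mark the 79 windows in which over 10% of CpG sites recur at 1 fixed distance, of which 68 are deep windows.

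Most low-throughout windows were partially methylated. Their pooled level was 50.3% in Bull1 and 48.3% in Bull2, and at CpG-poor sites it was 54.7% and 52.5%, against 85.2% and 81.0% in the other windows. If each CpG density class of these windows had carried the level of its class in the other windows, Bull1 would have stood at 83.0% and Bull2 at 79.0%, more than 30 points above the levels measured. The definition of the kind, under 70% at CpG-poor sites, itself sets much of this gap, so it is a description. Many single sites were themselves intermediate. Of the sites in low-throughout windows 37.6% had a level from 20% to under 80% in both libraries, against 8.49% in the other windows, while 17.4% against 63.1% were at or above 80% in both. Few reads make a site look intermediate, so sites with 10 or more reads were thinned to 10 reads in each library. Counted in each library by itself, unlike the shares above, intermediate sites then made up 48.0% in Bull1 and 52.1% in Bull2 in low-throughout windows. In the other windows they made up 12.8% and 20.6%. Thinning evens the depth but leaves the effect of few reads in place.

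The same held over longer stretches. In 1 kb bins with 3 or more sites, 62.2% of the bins of low-throughout windows stood between 20 and 80% in both libraries, against 15.4% of those of the other windows. Most low-throughout windows, 644 of 807, had 30% or more intermediate sites, and these were sparse in CpG, with a median of 629 listed sites. The remaining 163 were richer in CpG, with a median of 1254 listed sites and median shares of 28.9% low and 28.7% high sites. They ranged from windows that mixed low and high sites to windows with almost no high site, such as chr21:60600001-60700000 with 0% high sites. Coverage of low-throughout windows, which leave out deep windows by definition, had medians of 0.973 in Bull1 and 0.984 in Bull2 relative to the median window. It was lower in the 163 windows, at medians of 0.866 and 0.862, than in the 644, at 0.986 and 0.9996.

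The windows with the highest shares of intermediate sites show what partial methylation looked like. On chr12:32100001-32200000 72.0% of 503 used sites were intermediate in both libraries and only 3.58% were low, at a level of 54.3% in Bull1 and 52.2% in Bull2. No site there was CpG-dense, a term used here for 11 or more CpGs within 100 bp. On chr19:1000001-1100000 71.7% of 530 sites were intermediate, at 51.2% and 53.3%. The window chr11:107300001-107400000 had the highest share, 74.9% of 307 sites, but differed in kind, being a deep window at 3.61 and 3.28 times the median coverage with 74.6% CpG-dense sites.

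Dense-site windows, which by definition were not low at CpG-poor sites, had lower levels the denser the CpG sites. Their pooled level was 58.5% in Bull1 and 54.9% in Bull2, whereas sites with 1 to 2 CpG sites within 100 bp stood at 83.8% and 79.5%, within 2 points of the other windows. Sites with 3 to 5 stood at 78.9% and 75.4%, against 85.3% and 81.3% in the other windows, and those with 6 to 10 at 53.8% and 52.5%, against 81.96% and 79.0%. The densest class, 16 or more, stood at 12.9% and 13.8%, against 34.2% and 33.9% in the other windows. Against 8.74 and 9.32 reads per site in the other windows, this class had a mean of 20.8 and 21.9 reads in dense-site windows. CpG-dense sites made up 23.5% of their sites, against 7.48% in the other windows, with single windows from 0 to 42.2%. Coverage varied more than in the other windows, with quartiles of 0.749 and 1.28 times the median window in Bull1, against 0.896 and 1.05. The class levels of the other windows would have given them 76.1% in Bull1 and 72.1% in Bull2. Few of their sites were intermediate, 8.68%, with 27.2% low and 45.1% high in both libraries, a mix of low and high sites when pooled. Some of the windows were low only when weighted by reads. The unweighted mean of site levels had an upper quartile of 73.1% in Bull1 and 69.7% in Bull2.

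**Figure D3:**
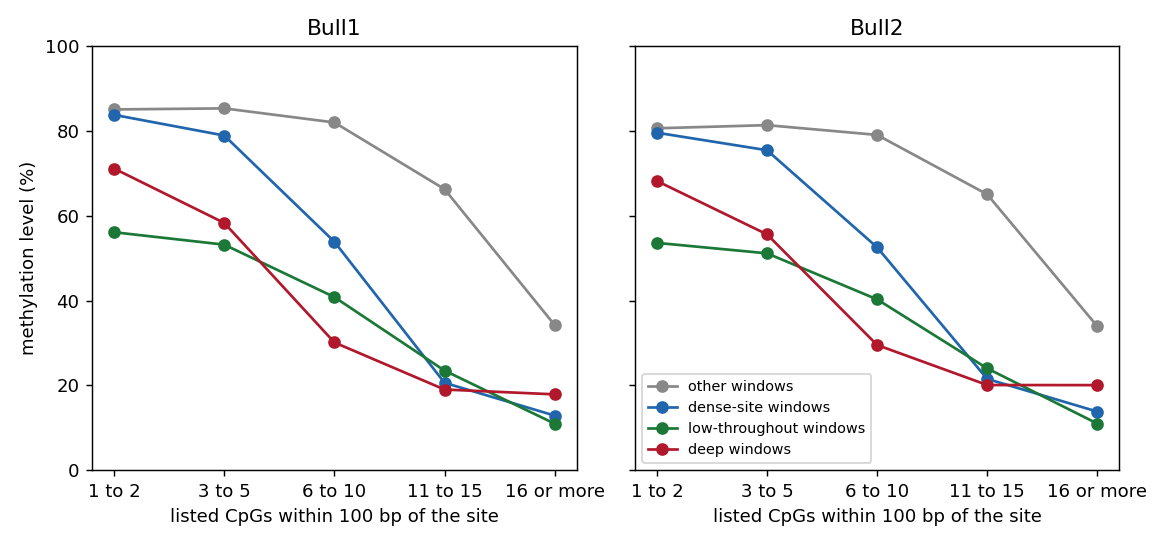
Methylation level (y axis, %) by how many listed CpG sites lie within 100 bp (x axis) in Bull1 and Bull2 for the 3 kinds of low-methylation windows and the other windows. Dense-site windows start at the level of the other windows in the sparsest class and part from them with density, while low-throughout windows are lower already in the sparsest class, at 56.1% in Bull1. Both patterns follow in large part from how the kinds were defined.

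Deep windows had a pooled level, weighted by reads, of 30.6% in Bull1 and 29.7% in Bull2. The unweighted mean of site levels averaged 51.5% and 49.8% over these windows, close to the 50.6% and 48.5% of low-throughout windows. Their coverage was high by definition, with a median of 2.09 and 2.21 times the median window and a maximum of 7.11 and 7.83 times. CpG-dense sites made up 40.5% of their sites, and those with 16 or more CpG sites within 100 bp stood at 17.9% and 20.1%. Their sparsest sites stood at 71.1% and 68.2%, between dense-site and low-throughout windows. Deep windows held 26958660 of the 45848324 reads of all low-methylation windows in Bull1, so they weigh most in any pooled level. The relative coverage of Bull2 over Bull1 had a median of 1.08 in deep windows, above the quartiles of 0.971 and 1.04 in the other windows.

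In a part of the deep windows many CpG sites recurred at 1 fixed distance, a pattern that tandem repeats can give. In each window the most frequent distance between 2 CpG sites from 50 to 6000 bp was found, with the share of listed sites that have another site at exactly that distance. This share was above 10% in 79 low-methylation windows, or 5.58%, of which 68 were deep (19.9% of deep windows), and in 17 of 23670 other windows. The share also grows with the number of CpG sites in a window, and the share to be had from CpG number alone was not tested. The distances named next are those of windows above this share. One of 1396 to 1406 bp was the most frequent in 24 of the 79 windows, on 15 chromosomes, 22 of them deep, and in none of the 17 others. With no limit on the share, a distance in this range or a few bp outside it was the most frequent in 90 low-methylation windows, of which 64 were deep, 19 dense-site and 7 low-throughout, and in 19 other windows. The 90 windows had a median level of 41.0% and 38.3%. The 24 windows had a median level of 27.0% in Bull1 and 27.1% in Bull2, although their CpG-poor sites stood at 80.1% and 75.7%. A distance of 91 to 92 bp was the most frequent in 13 of the 79, all deep and on 7 chromosomes, with a median level of 48.2% and 46.6%, and one of 90 to 93 bp in 7 of the 17 others. In the 13 windows the coverage of the libraries differed, at 2.13 times the median window in Bull1 and 2.98 times in Bull2. Among the 79 the 4 windows with 685 to 686 bp stood at 23.6% and 21.7%, with a coverage of 2.89 and 4.05 times. In the 3 of the 79 with 68 bp even CpG-poor sites were low, at 27.6% and 27.2%. Without the limit on the share these distances were the most frequent in more windows of every kind, such as 85 low-methylation and 763 other windows for 90 to 93 bp, and the values above do not cover those. Other distances recurred among the 79 as well. One of 157 bp was the most frequent in 9 windows, all deep, with levels of 24.8 to 30.1% in Bull1. Some of these were low at CpG-poor sites too, such as chr27:28500001-28600000 at 22.2% and 22.5%. Others were not, such as chr4:57400001-57500000 at 66.3% and 62.9%. A distance of 62 bp was the most frequent in 5 of the 79, all deep. Below the limit on the share it was also the most frequent in low-throughout windows. Examples are chr2:1-100000, at a share of 7.98%, and chr21:60600001-60700000, at 9.06%. Whether each distance belongs to a repeat, and to which, was not analysed here.

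The highest share of evenly spaced sites was that of chr24:56900001-57000000, where 60.6% of 5069 listed sites had another at 92 bp, with levels of 46.9% and 45.7%. The most listed sites of all members were on chr25:32400001-32500000, 6004, but only 540 of them, 8.99%, had 5 to 400 reads in both libraries. Its levels of 20.9% and 14.7% were far under the unweighted means of its site levels, 41.6% and 41.0%. Next came chr3:82800001-82900000 with 5788 listed sites, 81.9% of the used ones CpG-dense, and levels of 17.0% and 18.8%. The fewest were on chr23:52500001-52600000, 216 sites at 47.6% and 46.3%, and on chr24:62700001-62800000, 260 sites at 53.1% and 48.6%.

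The 5 windows with the lowest mean of both levels held almost no site at or above 80%. The first, chr21:60600001-60700000, stood at 9.38% in Bull1 (9.06 to 9.71%) and 9.70% in Bull2 (9.34 to 10.1%). Of its 2247 used sites 73.2% were below 20% in both libraries and 0 at or above 80%. Coverage there was below the median window, at 0.644 and 0.570 times, and only 1.42% of sites were CpG-dense. Its 1020 CpG-poor sites were about as low as the window, at 9.26% and 9.93%. The most frequent distance between its CpG sites was 62 bp, at a share of 9.06%, under the limit of 10% used above. The others were chr19:400001-500000 (12.6 and 12.1%), chr24:100001-200000 (13.9 and 13.2%), chr10:1-100000 (13.6 and 13.6%) and chr29:400001-500000 (13.8 and 14.1%). All 4 lay in the first 500 kb of their chromosome, and only the chr24 window was deep. The most frequent distance was 62 bp in the chr24 and chr29 windows too, at shares of 4.54% and 4.96%. It was 93 bp in the chr19 window and 124 bp in the chr10 window. By the mean of both libraries the lowest levels at CpG-poor sites were found on chr21:60600001-60700000, chr3:82800001-82900000 (11.2 and 12.9%, over 78 such sites) and chr10:1-100000 (13.4 and 12.5%).

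Low-methylation windows were gathered at chromosome starts. Cattle autosomes are acrocentric, with the centromere at an end of the chromosome. Of the 580 windows in the first 2 Mb of the 29 autosomes 217 were low, or 37.4%, against 42 of 580, or 7.24%, in the last 2 Mb and 5.64% overall. Of these 217, 186 were low-throughout, 28 deep and 3 dense-site, and they lay on 28 chromosomes. The first window itself was low on 23 chromosomes, and chromosome 21 had the most, 20 of its first 20 windows. Low-throughout windows in the first 2 Mb stood at 40.3% in Bull1 and 39.3% in Bull2, below the 53.5% and 51.2% of the 621 elsewhere. Between chromosomes the share ran from 13.2% on chromosome 18, with 87 windows, to 1.80% on chromosome 20, with 13. Chromosomes 23, 7, 19 and 15 followed chromosome 18, with 10.3, 9.95, 9.83 and 9.75%.

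Many windows lay next to other members, and some of these runs were long. The 1416 windows formed 795 runs, of which 561 were single windows, and 855 windows lay in runs of 2 or more. In the 49 runs of 5 or more there were 414 windows, 357 of them low-throughout, 51 deep and 6 dense-site. The longest run covered 31 windows, chr7:9100001-12200000, at a level of 33.2% in Bull1 and 31.7% in Bull2, with single windows from 17.6 to 64.9% in Bull1. Next came chr21:1-2200000, 22 windows at 41.7% and 40.3%, and chr19:1400001-3400000, 20 windows at 49.0% and 48.3%. Intermediate sites made up 44.6, 41.7 and 51.6% of the sites in these 3 runs. The median coverage of their windows was close to that of the median window, at 1.03, 1.03 and 0.964 times in Bull1. Deep windows, which weigh more in a pooled level, numbered 2 in the chr7 run and 3 in the chr21 run. In Bull1 those of chr7 stood at 17.6 and 20.1%, with coverage of 2.75 and 3.23 times. A run of another kind, chosen after its values were seen, was chr23:30700001-31700000, 10 windows at 40.9% and 40.5%, where 57.5% of sites were low in both libraries and 8.37% intermediate.

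Outside the runs the level did not return at once. Windows at 100 kb from the edge of a run of 5 or more had a median of 73.0% in Bull1 and 69.4% in Bull2, and at 1000 kb 80.6% and 76.9%. Around shorter runs the medians were 81.1% and 77.3% at 100 kb and 83.6% and 79.6% at 1000 kb. Windows beside a run are over the limit in at least 1 library by construction, which sets how low they can be.

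**Figure D4:**
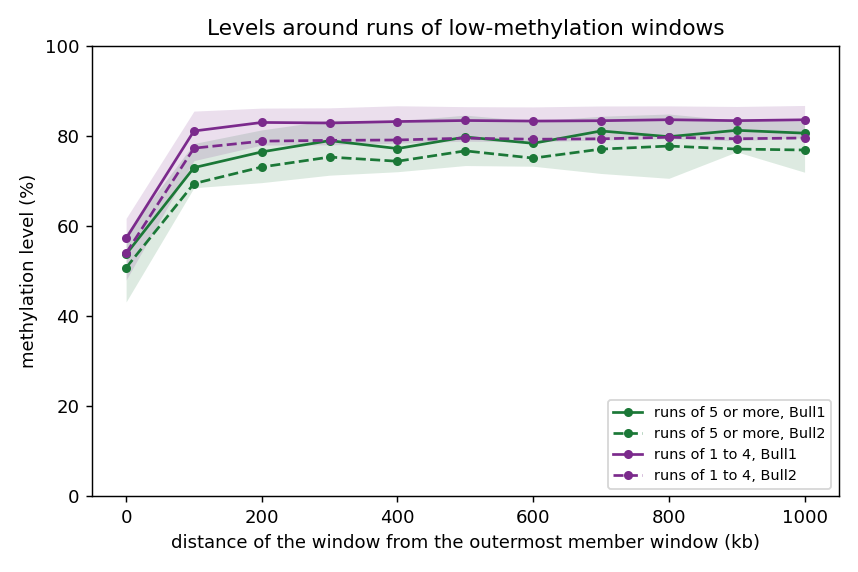
Median methylation level (y axis, %) of the windows at a given distance (x axis, kb) from the outermost window of a run, where 0 is that window itself, for the 49 runs of 5 or more windows and for shorter runs, in Bull1 (solid) and Bull2 (dashed). Bands give the quartiles of Bull1; the level around long runs stays a few points below that around short runs out to 1000 kb.

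Stretches of low methylation, which lower a window's level by themselves, were longer in the low-methylation windows. Consecutive 1 kb bins below 20% in both libraries ran for up to 51 kb there, in a low-throughout window, against up to 19 kb in the other windows. Runs of 5 kb or more numbered 416 in the 1416 low-methylation windows and 321 in the 23670 others.

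In percentage points the difference between the bulls was smaller in low-methylation windows, which were chosen for low levels. Bull1 was higher by 2.07 percentage points over all of them, and by 3.99 points over the other windows. With no coverage maximum the first difference was 1.22 points, over 1527 windows. By kind it was 2.05 points in low-throughout, 3.68 in dense-site and 0.917 in deep windows. These values weigh windows by reads, and the median deep window differed by 1.47 points, or by 1.81 points in the unweighted mean of its site levels. At CpG-poor sites the differences were 2.26, 3.75 and 2.69 points, against 4.19 in the other windows. The difference followed the level. Its median was 4.14 points for all windows with a mean level of 80 to 90%, 2.86 for 50 to 60%, 1.44 for 30 to 40% and -0.57 for 10 to 20%. Within the other windows it was 4.44 points where 1 to 2 CpG sites lay within 100 bp, at 85.0% in Bull1. Where 16 or more lay, at 34.2% in Bull1, it was 0.307 points. The difference relative to the level was not analysed. Since the rule asks for under 65% in both libraries, it leaves out windows near the limit in which Bull1 is far higher. At CpG-dense sites of low-methylation windows the direction turned, with Bull1 at 17.0% and Bull2 at 19.01% where 16 or more CpG sites lay within 100 bp, a difference of -1.96 points. By kind this difference was -2.17 points in deep, -0.94 in dense-site and -0.01 in low-throughout windows. Mean coverage of these sites over all kinds was 48.8 and 52.3 reads.

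**Figure D5:**
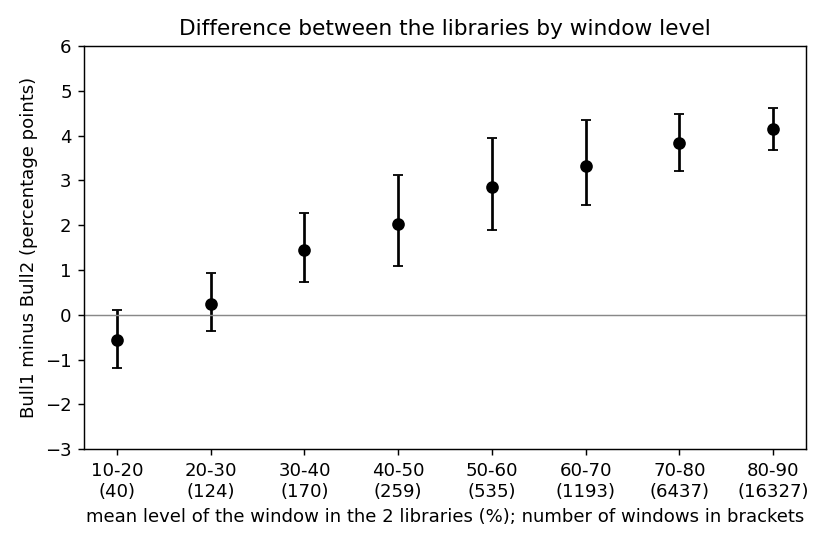
Median difference of window levels, Bull1 minus Bull2 (y axis, percentage points), by the mean level of the window (x axis, bands of 10%, with the number of windows), over all autosomal windows judged; bars give the quartiles. The median is 4.14 points in the band from 80 to 90% and -0.57 points in the band from 10 to 20%.

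Bull1 was higher by more than 5 points in 103 low-methylation windows, or 7.27%, against 11.02% of all windows. By kind these were 46 dense-site windows (17.2%), 40 low-throughout (4.96%) and 17 deep (4.99%). Bull1 was lower, by any amount and without the limit of 5 points, in 154 low-methylation windows, or 10.9%, against 0.630% of all windows. Only 4 of the 158 windows lower in Bull1 lay elsewhere. Some of these differences were within counting error, such as -0.05 points on chr10:1-100000. By kind the 154 comprised 75 deep (22.0%), 73 low-throughout (9.05%) and 6 dense-site windows (2.24%). Of the 41 windows with a mean level under 20% Bull1 was lower in 29. Among low-throughout windows Bull1 was lower in 39 of the 186 in the first 2 Mb (21.0%) and in 34 of the 621 elsewhere (5.48%).

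The largest differences between the libraries were of unlike kinds. On chr8:108300001-108400000 Bull1 stood at 62.4% (61.8 to 63.1%) and Bull2 at 49.4% (48.7 to 50.1%), a difference of 13.1 points. The unweighted mean of its 1232 site levels gave 13.1 points as well, CpG-poor sites 12.9, and 70.6% of the sites were intermediate in both libraries. The windows chr4:64000001-64100000 (63.4 against 52.4%) and chr23:19900001-20000000 (49.5 against 39.4%) differed by 11.002 and 10.1 points. Their unweighted means differed by 5.00 and 2.43 points only, and their coverage relative to the median window was higher in Bull2, at 1.63 against 1.26 and 1.66 against 1.34. What part coverage had in these 2 differences was not tested.

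In the other direction the differences were small. Bull1 was lowest against Bull2 on chr12:300001-400000, 48.4% (47.6 to 49.3%) against 51.2% (50.3 to 52.1%), or -2.76 points, but the unweighted means were 46.3 and 46.4%. On chr19:800001-900000 the levels were 50.8 and 53.5%, or -2.73 points, and on chr19:1000001-1100000 51.2 and 53.3%, or -2.10 points. Unweighted means differed there by -2.07 and -2.40 points. The windows from 800001 to 1200000 on chromosome 19 were all lower in Bull1, by -1.14 to -2.73 points, with coverages within 10% of the median window.

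Single cytosines were tested last, with Fisher's exact test (two-sided) on the reads of the 2 libraries at each site, and Benjamini-Hochberg adjustment over the 23978882 sites of the genome with 5 or more reads in both. Of the 82 differentially methylated cytosines (DMCs) at a false discovery rate of 0.05, which are 0.000342% of sites tested, 45 lay in low-methylation windows. These windows held 5.81% of the sites tested. When sites above 400 reads were left out before adjustment 4 of 9 DMCs lay in the windows, and with a maximum of 100 reads 0 of 1. Bull1 was higher at 44 of the 45, or 97.8%, and at 77 of all 82, or 93.9%. Deep windows held 30 of them with 2.02% of the sites tested, dense-site windows 10 with 1.349% and low-throughout windows 5 with 2.43%. The test has more power where reads are many, and the 45 sites had a median of 2793 reads in Bull1 and 2096 in Bull2. Of the 15 of the 82 DMCs with 400 reads or fewer in both libraries, 6 lay in the windows.

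Of the 45 DMCs 30 lay in 2 places. On chromosome 14 there were 21 between positions 148987 and 633531, in 5 deep windows at 2.36 to 5.00 times the median coverage in Bull1. Their levels ran from 78.5 to 93.8% in Bull1 and from 71.0 to 90.9% in Bull2, and the difference had a median of 4.04 points at a median of 7704 and 4735 reads. The windows stood at 28.0 to 40.5% in Bull1, but all 21 sites had over 400 reads and so were not among the sites of these window levels. On chr18:58200001-58300000, a dense-site window at 1.06 and 1.08 times the median coverage, there were 9 between positions 58241979 and 58243410. These sites had 17.5 to 48.1% methylation in Bull1 and 1.43 to 6.78% in Bull2, with a median difference of 28.0 points at medians of 165 and 118 reads. The medians over all listed sites were 17 and 15 reads, so these sites were deep although their window was not. The window was also among the 79 with a recurring CpG distance, 61 bp at a share of 11.6%. What part either had in the difference was not tested. The window as a whole stood at 60.1% in Bull1 and 51.1% in Bull2. Reads that span several of these sites count at each, so the 9 calls are not independent.

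Before adjustment, sites with p up to 0.05 made up 3.17% of the sites tested in low-methylation windows, 44077 in number, against 2.88% of the genome. By kind the shares were 4.17% in deep, 2.84% in low-throughout and 2.26% in dense-site windows. Bull1 was higher at 64.2% of these sites in low-methylation windows and at 88.0% in the genome, and within deep windows at 53.8%.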

How the data were processed

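Sperm DNA of Bull1 and Bull2 was measured by WGBS, 1 library each. Per the labels, DNA with lambda spike-in was bisulfite-treated and sequenced as paired ends on an Illumina sequencer. The authors trimmed reads, aligned them to UMD3.1 with Bismark and bowtie2, and removed duplicates. The deposited files give, per CpG, raw read counts (methylated, unmethylated and total) and the methylated fraction that the authors computed from them. Whether positions count from 0 or 1, and whether strands were summed, is not given in the sources used here.

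Levels were summed from the counts with numpy 2.4.6 and pandas 2.3.3. Intervals came from scipy 1.17.1, and the Fisher exact test was run with numba 0.67.0. Window levels and membership, the Fisher test with its adjustment and the search for repeated distances were checked on simulated data. The kinds, density classes, thinning, 1 kb bins, runs and positions were not. The windows and lists were chosen with earlier results of these data known. Windows to be named were the extremes of level, difference, run length, CpG number, intermediate share and CpG-poor level, those next to the limit, and those with an assayed locus. Reads that span several sites were counted at each, so intervals are too narrow. A genome and annotation of UMD3.1 were not used here. Depth was a mean of 20.0 reads per site in Bull1 and 18.4 in Bull2. Alternatives were coverage limits, window size and grid, averaging, the level limit and thinning.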

Additional observations from a re-analysis of the deposited data

Results flagged for a closer look

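On the X chromosome, which the windows above leave out, 361 of 1484 windows of 100 kb (24.3%) were under 65% in both libraries by the same rule. Of the 35245 autosomal sites above 400 reads in either library, also left out of the levels, 87.2% lay in low-methylation windows. Their level there was 26.4% in Bull1 and 26.7% in Bull2. There was no control sample for either value.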

How the results depend on the processing

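No paired analysis was possible because there was 1 library per bull. Leaving out deep windows, leaving out sites above 400 reads and the limits between kinds were chosen after seeing the data. Settings are named by what changed.

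The number of low-methylation windows was 2904 with windows of 50 kb and 675 with windows of 200 kb, by construction, and ran from 1023 (level under 60%) to 2031 (level under 70%) under the other alternatives. Bull1 stayed higher throughout. Over these windows Bull1 exceeded Bull2 by 2.24 points at a minimum of 1 read, 1.74 at 10, 1.22 with no maximum, 2.45 with a maximum of 100 reads, 1.89 with windows of 50 kb, 2.19 with 200 kb, 2.03 with the shifted grid, 1.89 unweighted, 1.60 under 60%, 2.57 under 70%, 2.04 with Bull1 thinned and 2.57 without deep windows. CpG-poor sites were lower than in other windows by a mean of -21.9 points. In the same order this became -21.1, -23.1, -28.1, -23.6, -24.4, -20.1, -22.0, -18.6, -24.9, -18.6, -22.0 and -22.4 points. Of the 45 DMCs, 0 were called with a maximum of 100 reads, when 1 was called in the genome, and 4 of 9 when sites above 400 reads were left out before adjustment. At an unadjusted p of at most 0.05 there were 44077 sites. The count was 35 to 57 under the other alternatives. Low-throughout windows numbered 752 to 895 with other limits between kinds. Causes were not tested. At the median depth single sites are not measured closely, so levels rest on sums.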
